A study of Mus musculus with 4 samples.

Results

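The 37 genes described here encode the glucose transporter and the enzymes of glycolysis, the proteins that make and move lactate or decide the fate of pyruvate, and the regulators and targets of the hypoxia response. They were taken by gene symbol from the lists of m6A peaks in mouse macrophages, where they are 37 of the 14812 genes with a peak. By role they are 4 genes of glucose uptake and trapping, 7 of upper glycolysis, 2 regulators of fructose-2,6-bisphosphate, 5 of lower glycolysis, 6 of lactate and pyruvate fate, 7 hypoxia regulators and 6 hypoxia targets. The rule used their symbols and no measured value.

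Bone marrow cells of C57BL/6 mice were differentiated with M-CSF, the cytokine that drives macrophage growth, for 7 days and then shared their culture with MC38, a mouse colon carcinoma line, for 24 h. Macrophages with floxed Mettl3 and no Cre (Mettl3fl/fl, called WT here) were compared with LysM-cre, Mettl3fl/fl macrophages (cKO), in which the lysozyme M promoter drives Cre in myeloid cells. Each genotype had 1 library of RNA fragments recovered by an m6A antibody (IP) and 1 library of the input, so there were 4 libraries and no replicates, and every difference below compares these libraries only. The groups share the floxed alleles, M-CSF and the MC38 cells, and only the cKO carried Cre, so that an effect of Cre cannot be told apart from loss of Mettl3. The labels do not say how many mice gave each library or whether MC38 cells were removed before RNA was taken.

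N6-methyladenosine (m6A) is a methyl mark on adenosines inside messenger RNA. Mettl3 is the catalytic subunit of the complex that writes it, mostly near stop codons and in 3' untranslated regions (UTRs), and reader proteins that bind it can alter RNA decay and translation. Glycolysis turns glucose into pyruvate, which activated macrophages largely reduce to lactate. When oxygen is short, prolyl hydroxylases no longer mark HIF alpha subunits for Vhl-dependent degradation, and HIF then raises transcription of glucose transporters, glycolytic enzymes and secreted factors such as Vegfa.

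The targeted gene was looked at first. Mettl3 had 2 listed peaks in WT and 4 in cKO macrophages, no differential peak, and no input level among the values used here, so the labels could not be checked against its RNA. Library read totals are not part of the values used here, which leaves the depth unknown, and the way IP and input were scaled to each other is not given in the sources used here. Of 12 macrophage markers, 12 had a peak and 10 had a mean input level of at least 1 FPKM. Cd163, at 0.12 FPKM in WT and 0.03 FPKM in cKO, fell below that filter. The 10 levels summed to 9507 FPKM in WT and 8195 FPKM in cKO. Lyz2, whose promoter drives the Cre, stood at 3393 and 1980 FPKM, and without it the sum was 6114 FPKM in WT and 6215 FPKM in cKO. Ctss made up most of the rest, at 4589 and 4841 FPKM, and the other 8 summed to 1525 and 1374 FPKM. FPKM divides the fragments of a transcript by its length and by the size of the library. Of 8 epithelial markers that fit MC38 cells, 4 had a peak. Krt19 had an input level, at 7.05 FPKM in WT and 10.8 FPKM in cKO, and the other 7 had none. Levels were given only for genes with a differential peak, so a missing level does not mean that the RNA was absent. For 6 of 7 fibroblast or stromal markers with an input level the sum was 111.9 FPKM in WT and 199.9 FPKM in cKO, led by Sparc at 32.4 and 66.7 FPKM. Fewer cells of a type and less RNA per cell cannot be told apart in such samples.

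The 10 member peaks with the lowest adjusted p in the authors' deposited table of differential peaks show which RNAs the strongest calls fell on. Of these, 6 peaks held GGAC followed by A, C or T, core forms of the sequence that the Mettl3 complex prefers, on the transcribed strand. The copy nearest to the middle of each peak is printed from the GENCODE transcript (mm10) with 10 bases on either side, 5′ to 3′, with the motif in capitals. In Gapdh it lay 31 bases past the last coding base, in Egln1 69, in Adm 80 and in Vegfa 237, all in the 3' UTR. In Slc16a3 it lay inside the coding sequence, and in Slc2a1 it lay 1199 bases downstream of the last coding base. These distances hold for the transcript that the authors assigned to each differential peak. The cKO list assigned the Slc2a1 peak there to another transcript, so its distance depends on that choice.
Gapdh, chr6:125161990-125162014, minus strand: accccagcaaGGACActgagcaaga
Vegfa, chr17:46018610-46018634, minus strand: gtccctcgtgGGACTggattcgcca
Slc2a1, chr4:119136838-119136862, plus strand: ctatggccaaGGACAcactaatacc
Slc16a3, chr11:120958038-120958062, plus strand: acgtgggagtGGACTcgagggaggt
Egln1, chr8:124910628-124910652, minus strand: gtggactcgtGGACAggatggacag
Adm, chr7:110629235-110629259, plus strand: gcaccggggcGGACTgagacaatcc
The peaks in Vegfa, Slc2a1, Slc16a3, Egln1 and Adm held 4 to 12 such motifs each and were lower in the cKO. They were long, at 953 to 2390 exonic bases. The Gapdh peak, of 251 exonic bases, held 3 and was higher. The other 4 peaks, in Aldoa, Pkm, Pgk1 and Ldha, held none of the 3 motifs. Each held 2 to 4 sites of DRACH, the broader form of that sequence. Those 4 were short peaks of 194 to 221 exonic bases that ended at the 3' end of the transcript, and all 4 were higher in the cKO.

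Most of the 37 genes carried m6A peaks in both genotypes, at levels below those of the typical peak. There were 97 peaks in 36 genes in WT and 99 peaks in 37 genes in the cKO, where Pgk1 was the gene with a peak in the cKO list alone. Peak values are the authors' log2 of IP over input per peak, and each list was called from 1 IP and 1 input library. The median member peak stood at 1.04 in WT and 1.08 in the cKO, against 1.22 and 1.30 over all peaks. Peaks at least 4-fold over input made up 7.22% of member peaks in WT and 10.1% in the cKO, against 21.2% and 20.0% of all peaks. Taking the strongest peak of each gene, the median was 1.41 in WT and 1.56 in the cKO, against 1.85 and 1.88 over all genes. Only 11 members in WT and 13 in the cKO stood above the median gene by this measure.

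The strongest WT marks lay on a few genes of several roles, none of them an enzyme of upper or lower glycolysis. The 7 genes with a WT peak at least 4-fold over input were Adm, Pfkfb4, Egln1, Vegfa, Slc16a3, Slc2a1 and Hk2, at 3.65, 3.08, 2.83, 2.71, 2.39, 2.34 and 2.20 on the log2 scale. In the cKO the strongest peaks of these genes stood at 3.01, 2.50, 2.57, 2.41, 2.18, 2.12 and 1.99, lower in each case, though the genes were picked here by their WT value. The 11 enzymes of upper and lower glycolysis with a WT peak had strongest peaks between 0.92 and 1.91, with a median of 1.24. Several hypoxia genes and transporters lay no higher, with Bnip3 at 1.10, Arnt at 1.14, Ndrg1 at 1.19 and Slc16a1 at 1.21. Among the enzymes Eno1, the enolase of glycolysis, at 0.92 in WT and 0.77 in the cKO, ranked at the 4.73 percentile of all genes with a WT peak. Over all 36 members with peaks in both lists, the strongest peak was higher in the cKO for 17 and lower for 19, or 52.8% lower, against 49.5% of all 13021 genes with peaks in both.

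**Figure D1:**
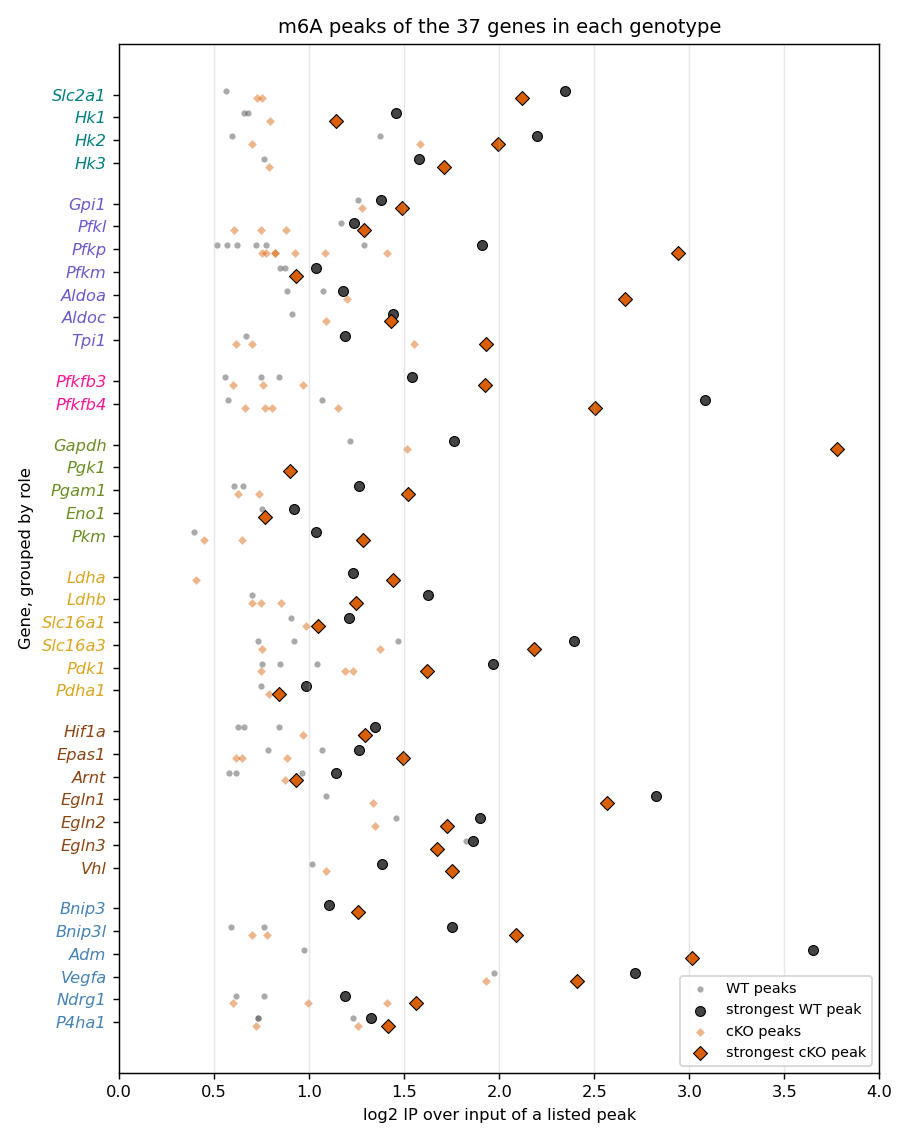
Authors' log2 of IP over input of the strongest peak of each of the 37 genes in the WT list (dark circles) and the cKO list (orange diamonds), with their other peaks as small symbols, grouped by role; each list comes from 1 IP and 1 input library. Adm, Pfkfb4, Egln1 and Vegfa lie highest in WT, and Gapdh moves farthest, from 1.76 to 3.78.

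The peaks lay mainly in 3' UTRs, as peaks did over the whole transcriptome. By the authors' annotation 62.9% of member peaks in WT (61 of 97; exact 95% interval 52.5% to 72.5%, counting error only) and 64.6% in the cKO (64 of 99; 54.4% to 74.0%) were in 3' UTRs, against 56.3% and 55.8% of all peaks, values inside these intervals. Peaks in the 5' UTR made up 12.4% in WT and 11.1% in the cKO, and intronic peaks 9.28% and 10.1%. Pfkp, the platelet-type phosphofructokinase, held the most peaks, 7 in WT and 8 in the cKO, with 4 intronic peaks in WT. Of the WT member peaks, 79.4% (77 of 97; 70.0% to 86.9%) overlapped a cKO peak on the same strand by at least 1 bp, against 73.2% of all WT peaks. The interval of that share holds the value of all peaks.

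One of the 3 motifs was present in 53.4% of WT member peaks (47 of 88 with transcript sequence; exact 95% interval 42.5% to 64.1%) and 53.9% of cKO member peaks (48 of 89; 43.0% to 64.6%). Over all peaks of like exonic length the shares were 57.2% and 59.1%, inside both intervals. On the opposite strand the motifs were found in 52.3% of WT and 60.7% of cKO member peaks, so that their share was of like size on both strands. Member peaks ended at the 3' end of their transcript (within 50 bases) in 42.0% of WT cases (31.6% to 53.0%), against 33.9% of all peaks of like length, a value inside the interval. In the cKO the share was 42.7% (32.3% to 53.6%), against 31.6% of all peaks of like length, just outside it.

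The comparison of genotypes asks how m6A on these RNAs differed between macrophages labelled as Mettl3 cKO and as WT. In the authors' deposited table, which lists peaks with p below 0.05, 28 of the 37 members had a differential peak, against 50.0% of all genes with a peak, and 24 had one at adjusted p below 0.05, against 30.8%. The median input level of the members with a value was 65.7 FPKM in WT, against 6.51 FPKM over all genes with one, and its part in how many were called was not tested. The 28 genes held 47 listed peaks, of which 29 were higher and 18 were lower in the cKO (38.3% lower), against 51.1% lower and 48.9% higher over all 10341 listed peaks of named genes. Of these, 30 passed an adjusted p of 0.05 (63.8%, against 53.3% of all listed peaks), with 17 higher and 13 lower by the authors' deposited table, against 45.7% higher and 54.3% lower over all such peaks. The differences were small, with a median size of 0.32 on the log2 scale against 0.69 over all peaks in the authors' deposited table. The 9 members without a differential peak were Pfkl, Aldoc, Ldhb, Slc16a1, Pdha1, Hif1a, Arnt, Egln2 and P4ha1, and these also had no input level.

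All 37 genes had a peak in the cKO, and peaks that matched between the lists were on balance slightly higher there. At 71 peaks of 34 genes that overlapped one to one, 48 were higher and 23 lower in the cKO, or 32.4% lower against 45.2% of 19331 such peaks over all genes. The median difference was 0.10 on the log2 scale (95% interval of the median over peaks 0.03 to 0.14), against 0.04 over all genes, a value inside the interval. That interval takes peaks as independent, though several share a gene and all come from 1 pair of libraries per genotype. It therefore holds no spread between cultures. The range ran from -0.71 for a 5' UTR peak of Slc16a3, at 1.47 in WT and 0.75 in the cKO, to 2.02 for Gapdh.

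At matched peaks the strongest were mostly lower in the cKO and the weaker ones were mostly higher, in the members and over all genes. Below the top band there was no steady gradient in either. Of 8 matched member peaks with a mean log2 IP over input of 2 or more, 6 were lower in the cKO, against 68.1% of all such peaks. Below a mean of 1, 8 of 27 were lower (29.6% against 39.5%), between 1 and 1.5, 7 of 29 (24.1% against 33.8%), and between 1.5 and 2, 2 of 7 (28.6% against 44.1%). Among the differential peaks of the authors' deposited table with a mean of 2 or more, 8 of 11 member peaks were lower, or 72.7% against 83.5% over all genes. Below a mean of 1, 7 of 15 member peaks in that table were lower (46.7% against 43.9% over all genes). Between 1 and 1.5 it was 1 of 14 (7.14% against 29.4%). Between 1.5 and 2 it was 2 of 7 (28.6% against 53.8%), so that over all genes the listed peaks of that band were mostly lower. These bands were set after the values had been seen.

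**Figure D2:**
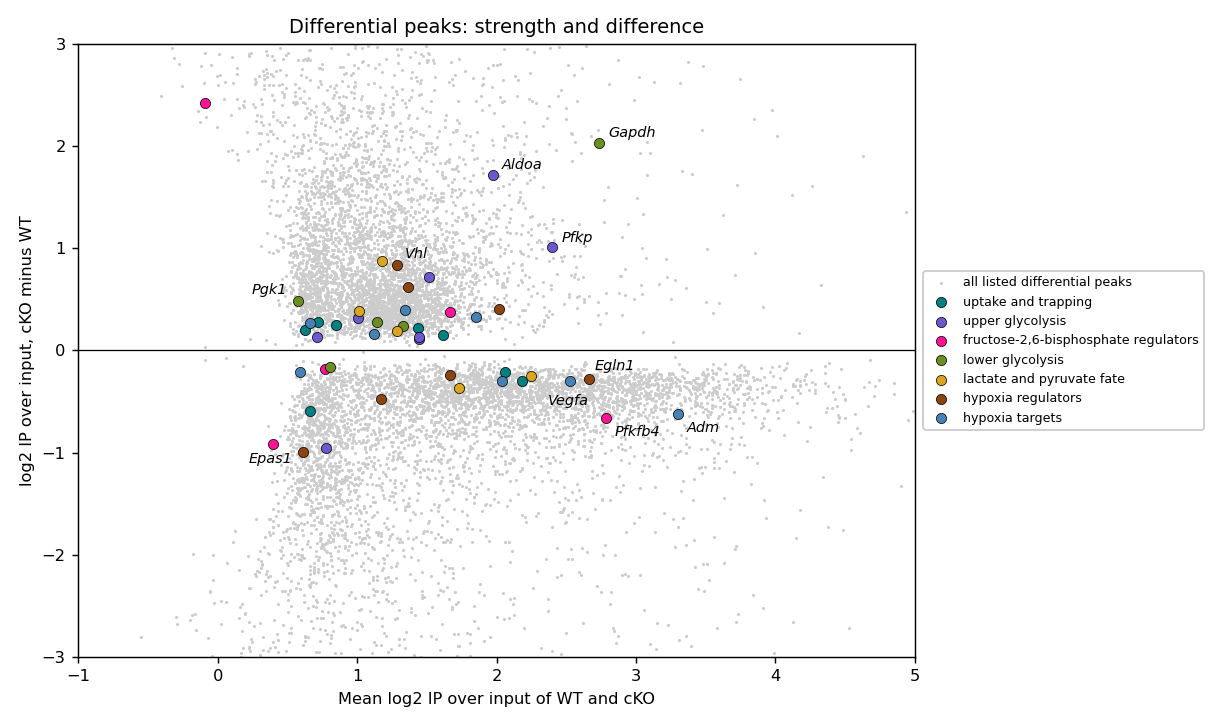
Difference in log2 IP over input (cKO minus WT, vertical) against the mean of both genotypes (horizontal) at each differential peak in the authors' deposited table, with member peaks coloured by role, 1 point per peak. Of 11 member peaks with a mean of 2 or more, 8 lie below 0; 718 of 10341 peaks, 1 of them a member peak in Ndrg1, lie outside the axes.

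Glucose uptake and trapping was marked most on Slc2a1 and Hk2. Slc2a1 encodes GLUT1, the main glucose transporter of activated macrophages. Its long 3' UTR peak was 5.03-fold over input in WT and 4.08-fold in the cKO, a difference of -0.30 on the log2 scale in the authors' deposited table (adjusted p = 1.83e-37). A weaker exonic Slc2a1 peak went the other way there, from 0.53 in WT to 0.73 in the cKO on the log2 scale (adjusted p = 2.35e-04, authors' deposited table). Hk2, the inducible hexokinase that traps glucose as glucose 6-phosphate, had a 3' UTR peak at 2.17 in WT and 1.95 in the cKO (adjusted p = 4.50e-09, authors' deposited table). Hk1, the housekeeping hexokinase, had 1 exonic peak lower in the cKO, at 0.95 and 0.37, and 1 higher, at 0.58 and 0.86, in the authors' deposited table (adjusted p = 0.00946 and 0.0470). Hk3, a hexokinase of myeloid cells, had 2 peaks that did not pass an adjusted p of 0.05 there. Of 8 peaks of these 4 genes in the authors' deposited table, 2 higher and 3 lower ones passed an adjusted p of 0.05, against 45.7% higher over all such peaks.

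In upper glycolysis the peaks that passed an adjusted p of 0.05 in the authors' deposited table were all higher in the cKO. Of 8 peaks in the authors' deposited table, 7 were higher and 1 lower, against 48.9% higher over all listed peaks. Those that passed an adjusted p of 0.05 were 5 higher and 0 lower, from 3 genes, against 45.7% higher over all such peaks. The mean log2 IP over input of the 8 peaks had a median of 1.44. Over all genes, 29.4% of listed peaks with a mean of 1 to 1.5 were lower in the cKO. Of 15 matched peaks of 7 genes, 14 were higher and 1 lower (6.67% lower, against 45.2% over all genes). Their median was 0.12, against 0.04 over all genes, and Pfkp alone gave several of the 15. Aldoa, the aldolase that splits fructose 1,6-bisphosphate, had a 3' UTR peak at 0.85 in WT and 1.17 in the cKO (adjusted p = 1.56e-46), and a 5' UTR peak at 1.11 and 2.84 (adjusted p = 0.0448), by the authors' deposited table. Tpi1, the triose phosphate isomerase, had a 3' UTR peak at 1.38 and 1.51 and an exonic peak at 0.64 and 0.78 (adjusted p = 9.29e-05 and 3.35e-04, authors' deposited table). Gpi1, the isomerase that follows hexokinase, differed by 0.11 in its 3' UTR (adjusted p = 0.00289, authors' deposited table). Pfkp and Pfkm, phosphofructokinases of the committed step, had 1 listed peak each, of opposite sign (adjusted p = 0.173 and 0.0646, authors' deposited table). The Pfkp peak was 3.72-fold over input in WT and 7.49-fold in the cKO by the authors' deposited table, a gap of about 1 on the log2 scale that missed that threshold.

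Pfkfb3 and Pfkfb4 make and break fructose-2,6-bisphosphate, the activator of phosphofructokinase. Pfkfb4 had the strongest peak among the glycolysis genes in WT, in its 3' UTR, at 3.11 in WT and 2.45 in the cKO (difference -0.66, adjusted p = 2.17e-06, authors' deposited table). Pfkfb3 differed the other way at its strongest peak, at 1.48 and 1.85 (adjusted p = 0.00837, authors' deposited table). An intronic Pfkfb3 peak had IP below input in WT, at -1.30, and 1.12 in the cKO, with an adjusted p of 0.0755 in the authors' deposited table.

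Lower glycolysis held the largest called difference of the enzymes, on Gapdh. Gapdh, the dehydrogenase that makes the first NADH of the pathway, had a peak over its stop codon that was 3.30-fold over input in WT and 13.5-fold in the cKO. The difference was 2.03 on the log2 scale, with an adjusted p listed as 0 in the authors' deposited table. By strongest peak, Gapdh stood at the 47.0 percentile of genes in WT and at the 93.5 percentile in the cKO. Gapdh, like Eno1, Pgam1 and Ldha, has near-identical copies in the genome, and how reads that map to several places were counted is not given in the sources used here. Pkm, the pyruvate kinase, was 2.01-fold over input in WT and 2.43-fold in the cKO at its 3' end (adjusted p = 1.56e-30, authors' deposited table). Pgk1, the first ATP-making enzyme of the pathway, stood at 0.33 and 0.82 (adjusted p = 4.60e-20, authors' deposited table). Eno1 was lower, at 0.89 and 0.73 (adjusted p = 1.25e-04, authors' deposited table), and the Pgam1 peak, in the 5' UTR, did not pass (adjusted p = 0.116). By the authors' deposited table, 3 peaks of lower glycolysis that passed an adjusted p of 0.05 were higher and 1 was lower, against 45.7% higher over all such peaks.

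Of the genes that handle lactate and pyruvate, the exporter and the kinase that blocks pyruvate entry to the citric acid cycle were lower at their strongest peaks, and Ldha was higher. Slc16a3, the lactate exporter MCT4, was 5.18-fold over input in WT and 4.37-fold in the cKO at its stop codon peak (difference -0.25, adjusted p = 1.26e-16, authors' deposited table). Pdk1, which phosphorylates and inhibits pyruvate dehydrogenase, was at 1.92 and 1.55 (adjusted p = 2.41e-04, authors' deposited table). Ldha, the subunit that favours lactate, was at 1.19 and 1.38 (adjusted p = 1.33e-12, authors' deposited table). Both Slc16a3 and Pdk1 also had a weaker 3' UTR peak listed as higher, neither of which passed (adjusted p = 0.124 and 0.130, authors' deposited table). Ldhb, the subunit that favours pyruvate, had no differential peak; its 3' UTR peak stood at 1.62 in WT and 1.24 in the cKO in the peak lists. Slc16a1, the transporter MCT1, stood at 1.21 and 1.04 and Pdha1, a subunit of pyruvate dehydrogenase, at 0.98 and 0.84 in those lists.

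Among hypoxia regulators the 3 prolyl hydroxylases held the strongest WT marks, with Egln1 at 2.83, Egln2 at 1.90 and Egln3 at 1.86. In the cKO list Vhl, at 1.75, lay above Egln2 at 1.73 and Egln3 at 1.67. That Egln3 value is for 1 cKO peak that spans 4925 bases, where the WT list had 2 peaks. Taken separately, the Egln3 peak at the 3' end stood at 1.81 in WT and 2.22 in the cKO (adjusted p = 0.0748, authors' deposited table). Egln1 (PHD2), the main oxygen sensor of HIF, was 6.97-fold over input in WT and 5.75-fold in the cKO (difference -0.28, adjusted p = 1.22e-12, authors' deposited table). Egln3 (PHD3), itself a HIF target, was at 1.79 and 1.55 at its stop codon peak (adjusted p = 1.19e-07, authors' deposited table). Vhl, the substrate receptor that binds hydroxylated HIF, had 2 called 3' UTR peaks of opposite sign. The one over the stop codon was 2.65-fold over input in WT and 1.91-fold in the cKO (adjusted p = 3.20e-04, authors' deposited table). The one at the 3' end was 1.83-fold in WT and 3.27-fold in the cKO (adjusted p = 5.47e-05, authors' deposited table). Hif1a, the HIF-1 alpha subunit, had no differential peak, and its strongest peak stood at 1.34 in WT and 1.29 in the cKO. Epas1, which encodes HIF-2 alpha, had a 5' UTR peak of 525 bases at 1.11 and 0.11 (adjusted p = 0.0468, authors' deposited table). The overlapping peaks in the 2 lists stood in the opposite order, at 0.78 in WT and 0.89 in the cKO. They were unlike in extent, spanning 43457 bases in WT and 225 in the cKO. That was the single disagreement in sign among 36 member peaks matched between the lists and the differential table. An Epas1 3' UTR peak was listed as higher, at 1.05 in WT and 1.67 in the cKO, and did not pass (adjusted p = 0.0640, authors' deposited table).

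The hypoxia targets went both ways, lower on Adm and Vegfa and higher on Bnip3, Bnip3l and Ndrg1. Adm, the vasodilator adrenomedullin, carried the strongest WT peak of all members and stood 12.2-fold over input in WT and 7.93-fold in the cKO (difference -0.62, adjusted p = 1.22e-12, authors' deposited table). Vegfa, the angiogenic growth factor, stood 6.40-fold over input in WT and 5.19-fold in the cKO at a peak that spans its stop codon (difference -0.30, adjusted p = 6.46e-65, authors' deposited table). Bnip3 and Bnip3l, mitophagy receptors, were higher in the cKO by 0.16 and 0.33 at their strongest peaks (adjusted p = 0.0380 and 0.0165, authors' deposited table). Ndrg1, a stress-response gene, was higher by 0.39 at its 3' end (adjusted p = 6.56e-06, authors' deposited table). An intronic Ndrg1 peak had IP far below input in WT, at -4.54, and 1.28 in the cKO (adjusted p = 0.0458, authors' deposited table), so its large difference rests on a WT value below input. P4ha1, a collagen prolyl hydroxylase, had peaks at 1.32 and 1.42 and no differential peak.

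Within 3' UTRs the counts by direction also differed with the place of the peak, a split made after the values had been seen. Of 9 differential member peaks that held the stop codon, 7 were lower in the cKO, and the exceptions were Aldoa and Gapdh, against 69.3% lower among 2610 such peaks of all genes in the authors' deposited table. Of 19 that reached the 3' end of the transcript without the stop codon, 15 were higher (78.9%), against 71.7% of 2414 over all genes in the authors' deposited table. The 4 lower ones were Pfkfb4, Slc2a1, Vegfa and Eno1. Place depends on the transcript that the authors assigned to each peak. In the cKO list the Slc2a1 peak was assigned to another transcript, on which it ended 356 bases before the 3' end. For Pfkfb4 no other transcript was assigned, so its place was not checked on another one. The peaks over stop codons were also longer and stronger, with a median of 1500 exonic bases against 268 for those at the 3' end. The stop codon peaks of Hk2, Aldoa, Gapdh, Slc16a3 and Adm also ran to the 3' end. Those of Aldoa and Gapdh were short, at 200 and 251 exonic bases. Among peaks with a mean log2 below 2, 13 of 14 member peaks at the 3' end were higher (81.4% over all genes) and 2 of 3 over the stop codon were lower (47.8% over all genes). With a mean of 2 or more, 5 of 6 over the stop codon and 3 of 5 at the 3' end were lower (93.3% and 74.6% over all genes). Place, length and strength therefore moved together, and the part of each in the result was not tested.

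**Figure D3:**
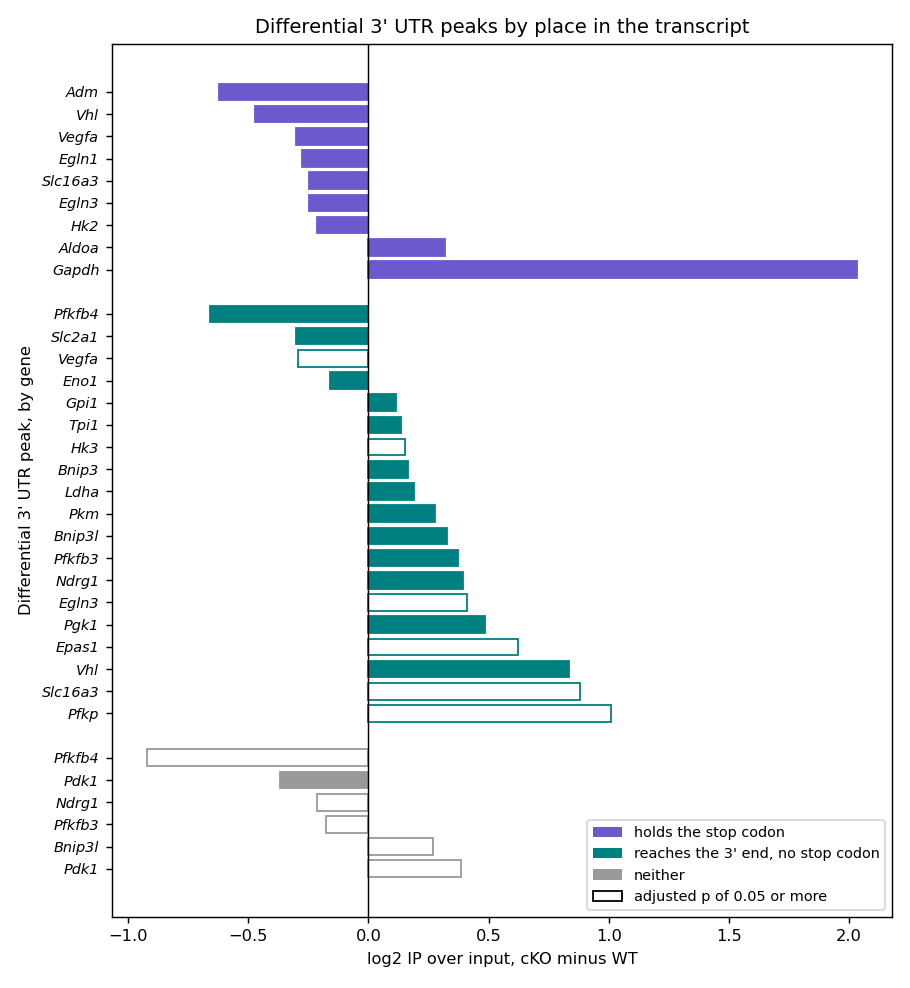
Difference in log2 IP over input (cKO minus WT) at each of the members' differential 3' UTR peaks in the authors' deposited table, by the place of the peak on the transcript that the authors assigned, 1 bar per peak, open where the adjusted p is 0.05 or more. Of 9 peaks that hold the stop codon 7 lie below 0, and of 19 that reach the 3' end without it 15 lie above 0.

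Opposite directions inside one gene were common. Of 16 members with at least 2 peaks in the authors' deposited table, 10 had peaks in both directions (62.5%; exact 95% interval 35.4% to 84.8%), against 49.1% of 2200 such genes. They were Egln3, Epas1, Hk1, Hk2, Ndrg1, Pdk1, Pfkfb3, Slc16a3, Slc2a1 and Vhl. Counting only peaks that passed an adjusted p of 0.05, both directions were found in 3 of 6 members, Hk1, Slc2a1 and Vhl, against 46.1% over all genes of the authors' deposited table.

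The RNA of these genes was abundant and differed little in the input libraries. Input levels were given for the 28 members with a differential peak, all of which had a mean of at least 1 FPKM, with a median of 65.7 FPKM in WT and 70.3 FPKM in the cKO, against 6.51 and 6.43 over 6079 genes. On the scale of log2(FPKM + 1), 15 lay higher and 13 lower in the cKO (53.6% higher, against 45.8% of all genes). The median difference was 0.06 (95% interval of the median over genes -0.09 to 0.12), against -0.02 over all genes, a value inside the interval. None of the 28 reached a 2-fold difference, which 0.411% of all genes did upward and 0.428% downward. The authors' deposited table called none of the 28 different (0 of 28), each with a q-value of 1, against 0.576% of all genes.

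The lowest levels were those of Pfkm, at 2.04 FPKM in WT and 2.81 FPKM in the cKO, and Pfkfb4, at 4.10 and 3.90 FPKM. The highest were those of Ldha, at 665.4 and 654.9 FPKM, Aldoa, at 651.5 and 669.2 FPKM, Pkm, at 554.9 and 487.0 FPKM, and Pgk1, at 490.6 and 566.8 FPKM. The order of Ldha and Aldoa changed between the genotypes, and with 1 library each the spread that would rank them is unknown. Gapdh stood at 64.6 FPKM in WT and 51.3 FPKM in the cKO, below the other enzymes of lower glycolysis (205.4 to 566.8 FPKM over both genotypes).

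**Figure D4:**
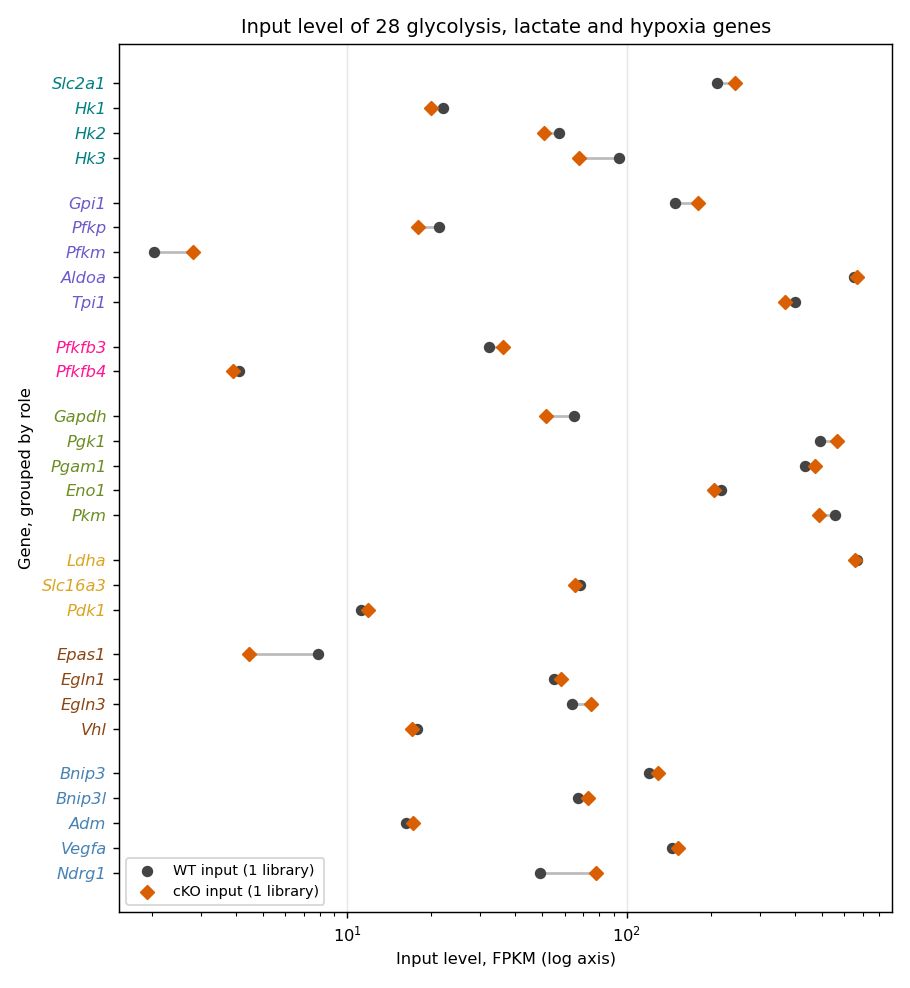
Input level in FPKM (log axis) of the 28 members with a value, in the WT library (circles) and the cKO library (diamonds), grouped by role. Levels run from 2.04 FPKM for Pfkm to 669.2 FPKM for Aldoa, and no pair of points is 2-fold apart.

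The largest input differences were those of Epas1 and Ndrg1. Epas1 stood at 7.88 FPKM in WT and 4.45 FPKM in the cKO, a difference of -0.70 on the log2(FPKM + 1) scale. Ndrg1 stood at 48.9 FPKM in WT and 78.0 FPKM in the cKO, a difference of 0.66. By the same measure these are the 1.04 and 98.98 percentiles of all genes with an input level. Hk3 followed, at 93.8 and 67.6 FPKM (-0.47), then Gapdh (-0.33), Pfkm (0.32), Gpi1 at 148.5 and 179.9 FPKM (0.27), Pfkp (-0.23), Egln3 (0.22) and Slc2a1 at 210.7 and 245.0 FPKM (0.22). The stromal marker sum given above moved with Ndrg1, and its part in that value was not tested.

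Each of the 5 hypoxia targets with an input level lay higher in the cKO, by a median of 0.11. Over all 6079 genes 45.8% lay higher, and the median size of the difference in either direction was 0.13. Besides Ndrg1 these were Bnip3 at 119.9 and 129.8 FPKM, Bnip3l at 66.8 and 72.9, Vegfa at 145.5 and 153.2 and Adm at 16.3 and 17.3. Apart from Ndrg1 the difference was at most 0.13. The hexokinases were all lower, Hk1 at 22.1 and 19.9 FPKM and Hk2 at 57.2 and 50.8 FPKM beside Hk3. Of the 3 genes of lactate and pyruvate fate with a level, Slc16a3 stood at 68.3 and 65.4 FPKM and Pdk1 at 11.2 and 11.9 FPKM, beside Ldha. The hydroxylases Egln1, at 54.9 and 58.2 FPKM, and Egln3, at 64.0 and 74.8 FPKM, were slightly higher, and Vhl stood at 17.8 and 17.1 FPKM.

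The RNAs with the highest input level tended to have the weaker peaks. Across the members the rank correlation of input FPKM with the strongest log2 IP over input was -0.37 in WT (27 genes) and -0.21 in the cKO (28 genes), against -0.29 and -0.28 over all genes with both values. The correlation is across genes within 1 pair of libraries that share the input, and genes are not replicates.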

How the data were processed

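Poly(A) RNA of each genotype was fragmented and pulled down with an m6A antibody, and strand was kept by dUTP, per the labels' protocols. The submitters' processing notes name fastp, HISAT2, HOMER, ChIPseeker, StringTie, edgeR and the build mm10, with no role or order; the peak caller is not given in the sources used here. Per the file headers, each row of the deposited peak lists holds a log2 ratio of IP to input with its p-value and adjusted p-value. The authors' deposited differential table gives the log2 value in each genotype, their difference and its p-value, and lists p below 0.05 only, so the number of peaks tested is unknown; its 2 log2 columns were matched to genotypes by their headers and checked against the lists. The deposited FPKM of the 2 input libraries is given for genes with a differential peak.

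The 37 genes and the lists of other genes were chosen with earlier results of these data known. The rule for named genes was to account for every member, in full where it had a differential peak or an input level. Peaks were overlapped by strand with bedtools 2.31.1 (at least 1 bp), and summarised with pandas 2.3.3 and scipy 1.17.1. Starts were made 1-based: no WT peak began at its gene's start as listed, and 4802 began 1 base before it. Spans cross introns, so sequence and place were read in exons of the GENCODE M21 transcript that the authors assigned, which gave sequence for 94.7% of peaks. Input differences are log2(FPKM + 1), for a mean of at least 1 FPKM. No test was run, since there is 1 library per group. Exact binomial intervals (Clopper-Pearson, 95%) cover counting error only. The intervals of a median take peaks or genes as independent and hold no spread between cultures. The low FPKM values held no steps of whole reads from which depth could be read. The overlap step was tested on simulated data. Alternatives were the thresholds, overlap, pseudocount, filter, scaling and motif.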

Additional observations from a re-analysis of the deposited data

How the results depend on the processing

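With an adjusted p below 0.05 and a log2 IP over input of at least 1, member peaks numbered 50 in WT and 51 in the cKO, and 80% and 84.3% of them were in 3' UTRs. Requiring a reciprocal overlap of 50% lowered the share of WT member peaks shared with the cKO to 66.0%. Of the differential member peaks higher in the cKO, 17 passed an adjusted p of 0.05 and 5 had a difference of at least 1; of the lower ones 13 and 0 did, by the authors' deposited table. With all 18 forms of the broader DRACH motif, 90.9% of WT and 94.4% of cKO member peaks held one. The median difference at matched peaks stayed at 0.09 to 0.10 under the other overlaps and thresholds and without Gapdh, and the median input difference at 0.05 to 0.08 under the other pseudocounts, filters and scaling and without the 4 genes with near-identical copies. For the input difference of single members the alternatives changed the pseudocount only, which cannot reverse a sign, so they do not test direction. Of 56 such alternatives, 52 moved the difference by little. The 4 others were for Epas1, at -0.81 and -0.45, and Pfkm, at 0.44 and 0.15, with pseudocounts of 0.1 and 5. Leaving out Gapdh, leaving out the near-identical copies and the overlap in exons were added after the data had been seen; the last tested only pairs assigned to the same transcript and gave 79.4%. Overlap of blocks was not run, since the tables hold spans only. No paired analysis was possible because each group has 1 library. With unknown depth and no replicates, no spread between cultures can be set beside any difference.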

Other observations

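Of 65 other genes of glucose metabolism, pyruvate oxidation and the hypoxia response, 59 had a peak and 40 had a peak in the authors' deposited table of differential peaks, against 50.0% of all genes with a peak. Their listed peaks were 28 higher and 23 lower in the cKO, against 48.9% higher over all listed peaks. Of those that passed an adjusted p of 0.05 in the authors' deposited table, 15 were higher and 14 lower, against 45.7% higher over all such peaks. Input levels were given for 36 of them after the filter, 20 higher and 16 lower in the cKO, against 45.8% higher over all genes. The median difference was 0.02 on the log2(FPKM + 1) scale, against -0.02 over all genes, with 0 at a 2-fold difference. The largest differences were those of Pgf, placental growth factor, at 2.39 FPKM in WT and 4.29 FPKM in the cKO (0.64), Mpc1, a subunit of the mitochondrial pyruvate carrier, at 12.7 and 18.7 FPKM (0.52), G6pdx, the entry enzyme of the pentose phosphate pathway, at 42.7 and 30.5 FPKM (-0.47), and Plod2, a collagen lysyl hydroxylase, at 14.7 and 19.6 FPKM (0.40).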
